A study of Mus musculus with 2 samples.

Results

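The 33 genes described here carry cholesterol metabolism: its synthesis from acetyl units, the control of that synthesis, the handling of cholesterol inside the cell and its export. They were taken from a fixed list by gene symbol and not by a cut-off on measured values. The list was, however, chosen with earlier results of these data known. All 33 were among the 19831 genes of both deposited tables. They fall into 5 arms: 8 mevalonate and isoprenoid enzymes, 11 squalene and sterol enzymes, 5 genes of SREBP control, 6 genes of uptake control, trafficking and storage, and 3 genes of the LXR receptor and efflux. The cells were endothelial cells sorted on CD31, a surface protein of endothelium, from tumours of adult C57BL/6 mice, and were profiled as single cells from the 3′ ends of transcripts. Of the 2 libraries, one was labelled control and the other NF2 KO, a knockout of Nf2, the gene of merlin, a membrane-associated protein upstream of the Hippo pathway. The driver of the knockout, the exons it removed, the tumour type and the number of mice are not stated in the labels used here. There was 1 library per group, so the differences between libraries have no replicate and no test between conditions was made.

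Cholesterol synthesis runs from acetyl-CoA through mevalonate to farnesyl diphosphate, which is drawn off for isoprenoids or joined into squalene and closed into sterols. Transcription of its enzymes is raised by SREBP2, which the escort SCAP carries out of the endoplasmic reticulum when membrane sterol is low and which the INSIG proteins retain there when sterol is high. Oxysterols act in the opposite sense through the LXR receptors, which raise the efflux pumps ABCA1 and ABCG1 and the ubiquitin ligase MYLIP, which removes lipoprotein receptors. Endothelial cells both take up lipoprotein cholesterol from blood and make their own.

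The control library held 2826 cells and 34649992 UMIs (molecules counted by their molecular identifiers), the NF2 KO-labelled library 3368 cells and 58907098 UMIs. Barcodes in each library carried a run number, 1 or 2, whose meaning the labels do not state, so the runs are parts of 1 sample and not replicates. Pairs of runs shared at most 1 cell barcode. Run 1 of the control stood apart in depth, with a median of 2746 UMIs per deposited cell against 14337 to 19409 in the other 3 runs. After shallow clusters, clusters of other cell types and probable doublets had been left out, 1437 control and 2731 NF2 KO-labelled cells were retained, with medians of 17570 and 17253 UMIs per cell and 28898931 and 52987451 UMIs in all. Levels are given as CPM, the UMIs of a gene per 1000000 UMIs of the retained cells, and ratios are of CPM, NF2 KO-labelled over control. Brackets give 95% intervals that cover counting error only, exact Poisson for a level and exact conditional for a ratio. Nf2 itself was at 21.4 and 22.7 CPM in the control runs and at 20.2 and 20.3 CPM in the NF2 KO-labelled runs, a ratio of 0.917 (0.830 to 1.01). Because the tags come from 3′ ends and the deleted exons are not given here, this level does not check the label.

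The 20 endothelial markers were all detected, and summed to 10807 CPM for the control against 8119 CPM for the NF2 KO-labelled retained cells. Markers of other cell types were low in both: the 12 monocyte or macrophage markers summed to 40.4 and 35.5 CPM and the 7 neutrophil markers to 67.4 and 77.4 CPM. The 8 pericyte or smooth muscle markers summed to 15.7 CPM for the control against 35.4 CPM for the NF2 KO-labelled cells, of which Tagln made 25.1 CPM. Of the 8 epithelial markers 6 were in the tables, and these summed to 7.79 and 33.9 CPM, of which Cldn4 made 30.7 CPM in the NF2 KO-labelled cells. The part of these markers in the results below was not tested. Cycling cells differed little in weight: 12 mitotic markers summed to 710 and 667 CPM, and 13 S phase markers to 446 and 452 CPM.

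The promoters of 27 of the 33 genes were matched by symbol in a RefSeq table of the GRCm38.p6 build, which is the mm10 build of the submitters' processing notes. Sqle, Stard4, Npc1, Fdps, Abcg1 and Fdft1 had no entry. In the 250 bases before each start site, 2 motifs were searched on both strands: the core of the sterol regulatory element bound by SREBP, TCACNCCA, and the CCAAT box bound by NF-Y, a factor known to act together with SREBP. The motifs share the letters CCA and can overlap. A CCAAT box was found in 23 of the 27 genes (85.2%) and in 15 of the 16 matched synthesis enzymes (93.8%), against 40.3% of the 7321 genes with a promoter entry and a mean of at least 5 CPM in these cells. The SRE core was found in 3 of the 27, Hmgcs1, Msmo1 and Srebf2, against 3.82% of the same background. Neither motif was found before Abca1 or Nr1h2, the 2 matched genes of the LXR and efflux arm. A match describes the letters and is not a shown binding site. The sequences below, 5′ to 3′ along the gene's own strand, were chosen to show the gene with the highest ratio past the expression minimum (Insig1), a mevalonate enzyme that holds both motifs (Hmgcs1), a mevalonate enzyme counted as higher (Mvd), the single synthesis enzyme with a ratio below 1 (Ggps1) and an efflux pump (Abca1). Capitals mark the motif matches, ATTGG being the CCAAT box read on the other strand. The regions are chr5:28071162-28071362 (plus strand) for Insig1, chr13:119690101-119690350 (plus) for Hmgcs1, chr8:122443423-122443672 (minus) for Mvd, chr13:14063489-14063738 (minus) for Ggps1 and chr4:53159896-53160145 (minus) for Abca1. That of Insig1 is 201 bases long, because the bases nearest the RefSeq start lie inside the GENCODE gene model and are not shown. As a check, bases 26 to 50 after each start site were looked for in GENCODE transcripts of the gene. They were found for 32 of 35 promoter entries, but not for that of Hmgcs1, whose RefSeq start lies before the GENCODE gene model.
Insig1: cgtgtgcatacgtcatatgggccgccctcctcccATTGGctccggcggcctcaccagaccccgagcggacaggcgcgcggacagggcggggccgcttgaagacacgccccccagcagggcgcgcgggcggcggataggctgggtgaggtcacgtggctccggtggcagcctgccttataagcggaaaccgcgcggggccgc
Hmgcs1: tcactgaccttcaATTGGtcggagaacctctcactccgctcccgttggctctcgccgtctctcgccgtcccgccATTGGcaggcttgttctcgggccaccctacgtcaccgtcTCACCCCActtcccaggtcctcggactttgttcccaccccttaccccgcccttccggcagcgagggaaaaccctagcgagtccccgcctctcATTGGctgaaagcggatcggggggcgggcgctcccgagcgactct
Mvd: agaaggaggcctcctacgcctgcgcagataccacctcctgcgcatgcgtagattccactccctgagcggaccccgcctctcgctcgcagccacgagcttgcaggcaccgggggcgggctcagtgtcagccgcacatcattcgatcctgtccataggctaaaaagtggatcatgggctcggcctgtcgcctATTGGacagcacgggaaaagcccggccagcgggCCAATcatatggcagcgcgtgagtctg
Ggps1: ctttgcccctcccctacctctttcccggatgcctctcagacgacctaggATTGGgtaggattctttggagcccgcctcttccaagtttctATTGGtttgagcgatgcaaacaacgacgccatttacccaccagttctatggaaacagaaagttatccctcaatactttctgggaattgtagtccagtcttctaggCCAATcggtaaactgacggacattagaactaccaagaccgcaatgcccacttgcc
Abca1: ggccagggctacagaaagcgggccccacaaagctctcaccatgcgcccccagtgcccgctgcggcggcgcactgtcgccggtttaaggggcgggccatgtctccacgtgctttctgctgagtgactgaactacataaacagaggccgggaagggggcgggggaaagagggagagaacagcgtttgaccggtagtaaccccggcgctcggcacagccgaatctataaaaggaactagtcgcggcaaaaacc

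Of the synthesis enzymes with enough UMIs, 10 of 17 were higher in the NF2 KO-labelled library, as were Insig1, Tmem97 and Mylip. The efflux pumps Abca1 and Abcg1 and the exporter Npc1 had ratios below 1 that did not reach the size rule, and Npc2, Stard4, Soat1 and Nr1h2 had ratios near 1. Genes were counted as higher or lower where the libraries differed by at least 1.5-fold and the mean CPM of the libraries was at least 5. Of the 33, 31 passed that minimum, and Lss and Tm7sf2 did not. By this rule 13 of the 31 were higher and 0 were lower, where over all 9255 genes past the minimum 3.91% were higher and 5.49% lower (9.4% together). The members were not a blind choice, since earlier results of these data were known when they were listed. The highest ratios were those of Insig1 (2.60), Sc5d (2.36), Idi1 (2.33), Cyp51 (2.32), Fdps (2.02), Sqle (2.01) and Mylip (2.01). The lowest were those of Abcg1 (0.674), Abca1 (0.728) and Npc1 (0.736). Just inside the size rule lay Pmvk (1.51) and Mvd (1.53), and just outside it Fdft1 (1.49), Mvk (1.42) and, on the lower side, Abcg1.

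**Figure D1:**
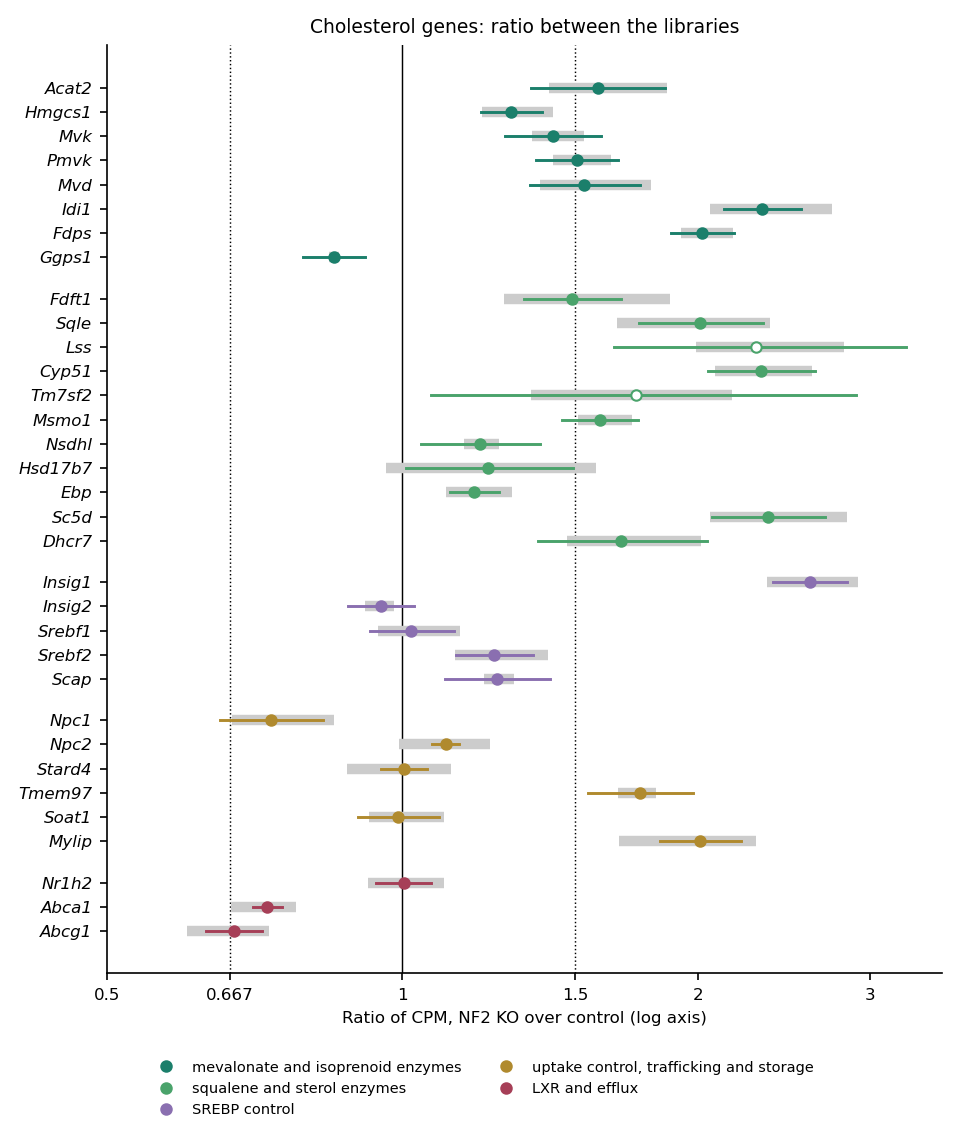
Ratio of CPM, NF2 KO-labelled over control, for each of the 33 genes on a log axis, coloured by arm; points are the ratio in the retained cells, thin lines its 95% counting interval, grey bars the range over the 4 pairings of an NF2 KO run with a control run, and open points the 2 genes under the minimum of 5 CPM. Of the enzymes only Ggps1 (0.852) lies left of 1, Insig1 (2.60) lies furthest right, and Abca1 (0.728) and Abcg1 (0.674) lie left of 1.

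The arms differed in their typical ratio. The median log2 ratio was 0.60 over the 8 mevalonate and isoprenoid enzymes and 0.73 over the 11 squalene and sterol enzymes. It was 0.31 over the 5 genes of SREBP control, 0.08 over the 6 genes of uptake control, trafficking and storage, and -0.46 over the 3 genes of LXR and efflux. Over all 9255 genes past the minimum it was -0.02, and over all 19 synthesis enzymes 0.66. Summed, the 19 enzymes stood at 333 CPM for the control against 500.5 CPM for the NF2 KO-labelled cells, a ratio of 1.5 (1.47 to 1.54). The 9 genes of uptake control, trafficking, storage, LXR and efflux stood at 644 and 616 CPM, with a median log2 ratio of 0.00.

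The difference in the enzymes was larger than that between the runs of a library. The 19 enzymes summed to 322 CPM in run 1 and 343 CPM in run 2 of the control, and to 523 and 488 CPM in the NF2 KO-labelled runs, so the runs of the 2 libraries did not overlap. Over the 4 pairings of runs the median log2 ratio of the enzymes ranged from 0.54 to 0.78, while run 2 over run 1 gave 0.10 within the control and -0.11 within the NF2 KO-labelled library. Of the 31 genes past the minimum, 20 had both NF2 KO-labelled runs above both control runs and 5 had both below, which over all 9255 genes held for 28% and 33.2% (61.2% together). All 13 genes counted as higher were among the 20, while over all genes 3.84% met both conditions on the higher side and 5.4% on the lower. Without run 1 of the control, the run that stood apart in depth, 11 genes were counted as higher and 0 as lower, and the median log2 ratio of the enzymes was 0.61. Between the runs of 1 library, a ratio of at least 1.5 in either direction was seen for 1.85% of the 9255 genes in the control and 1.87% in the NF2 KO-labelled library, and among the 33 genes for Hsd17b7 alone, in the control.

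**Figure D2:**
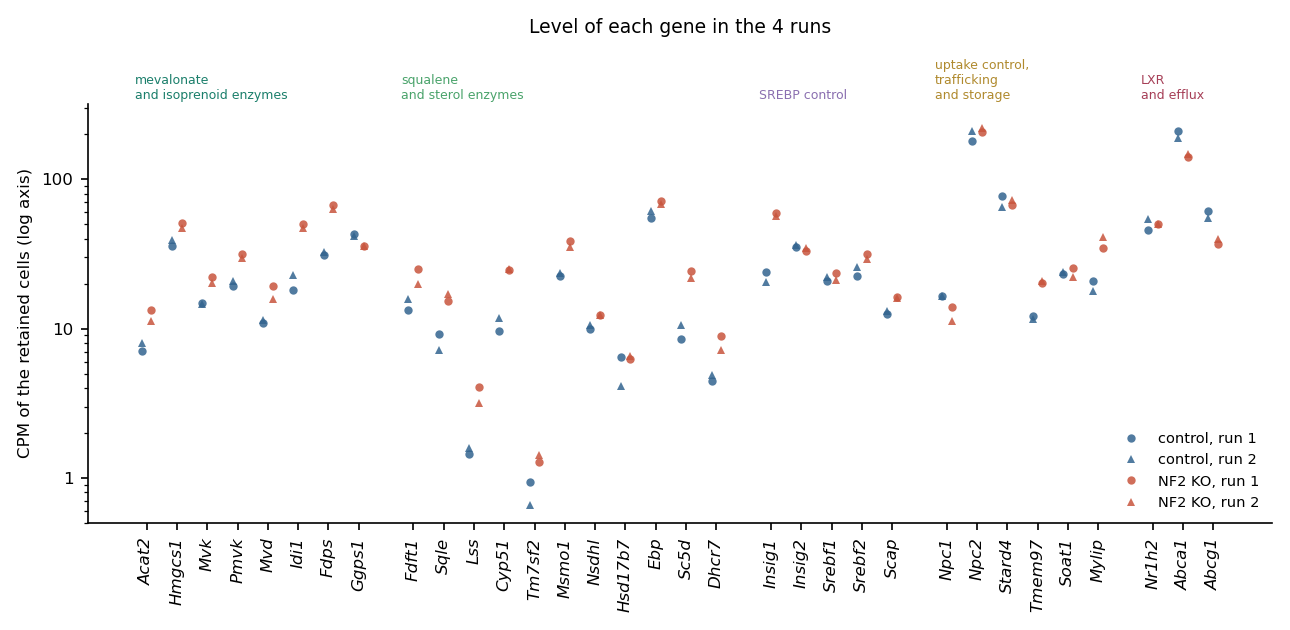
CPM of each gene (log axis) in the 4 runs, circles for run 1 and triangles for run 2, control in blue and NF2 KO-labelled in red, ordered by arm. The red symbols of Idi1 (46.9 and 49.9 CPM), Insig1 (56.8 and 59.7 CPM) and Sc5d (21.9 and 24.2 CPM) stand clear of the blue ones, and those of Abca1 (140 and 148 CPM) lie below them.

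In the mevalonate arm, 5 of the 8 enzymes were counted as higher. Fdps, which makes farnesyl diphosphate at the branch point to sterols and isoprenoids, had 31.1 and 32.6 CPM in the control runs and 67.6 and 62.8 CPM in the NF2 KO-labelled runs, a ratio of 2.02 (1.88 to 2.18). Idi1, the isomerase that supplies dimethylallyl diphosphate (ENSMUSG00000058258.14, chromosome 13, 8885501 to 8892451 on the plus strand of GRCm38), had 18.2 and 22.8 CPM against 49.9 and 46.9 CPM, a ratio of 2.33 (2.13 to 2.55). For both, each NF2 KO-labelled run was at least 1.92 times each control run. Acat2, the cytosolic thiolase that opens the pathway by joining acetyl-CoA units, had 7.12 and 7.99 CPM against 13.2 and 11.3 CPM (ratio 1.58, 1.35 to 1.85). Pmvk, the phosphomevalonate kinase, had 19.4 and 20.8 CPM against 31.7 and 29.6 CPM (ratio 1.51, 1.37 to 1.66). Mvd, the mevalonate diphosphate decarboxylase, had 10.8 and 11.4 CPM against 19.4 and 15.8 CPM (ratio 1.53, 1.35 to 1.75). None of these 3 overlapped between libraries, though their ratios lay close to the size rule.

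The rest of the arm did not pass the size rule. Hmgcs1, the synthase that makes HMG-CoA and whose promoter held the SRE core and 3 CCAAT boxes, had 35.7 and 39.0 CPM in the control runs and 50.9 and 46.9 CPM in the NF2 KO-labelled runs, a ratio of 1.29 (1.203 to 1.39). Mvk, the mevalonate kinase between them, had a ratio of 1.42 (1.27 to 1.60). Ggps1, which makes geranylgeranyl diphosphate for protein prenylation and so stands outside the route to cholesterol, was the single enzyme of the 19 with a ratio below 1. It had 42.8 and 41.8 CPM in the control runs and 36 CPM in each NF2 KO-labelled run, a ratio of 0.852 (0.793 to 0.916), and its runs did not overlap.

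In the squalene and sterol arm, all 11 enzymes had ratios above 1 and 5 of the 9 past the minimum were counted as higher. Sqle, the epoxidase that is a rate-limiting step of this stretch, had 9.23 and 7.20 CPM in the control runs and 15.3 and 17.1 CPM in the NF2 KO-labelled runs, a ratio of 2.01 (1.74 to 2.33). Cyp51, the lanosterol demethylase, had 9.67 and 11.8 CPM against 24.6 and 25.3 CPM (ratio 2.32, 2.05 to 2.63). Sc5d, the sterol desaturase late in the pathway, had 8.50 and 10.6 CPM against 24.2 and 21.9 CPM (ratio 2.36, 2.07 to 2.70). In these 3 genes the lowest NF2 KO-labelled run was at least 1.65 times the highest control run. Msmo1, the methyl sterol oxidase, had 22.4 and 23.4 CPM against 38.4 and 35.4 CPM (ratio 1.59, 1.46 to 1.74). Dhcr7, the reductase of the last steps, had 4.43 and 4.89 CPM against 8.94 and 7.19 CPM (ratio 1.67, 1.37 to 2.05). Neither overlapped between libraries.

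The other sterol enzymes were nearer to level. Ebp, the sterol isomerase and the enzyme with the most UMIs of the arm, had 55.2 and 61.8 CPM in the control runs and 71.4 and 68.4 CPM in the NF2 KO-labelled runs, a ratio of 1.18 (1.12 to 1.26), without overlap. Fdft1, the squalene synthase that commits farnesyl diphosphate to sterols, had a ratio of 1.49 (1.33 to 1.67), and Nsdhl, a dehydrogenase of the demethylation complex, one of 1.199 (1.04 to 1.38). Hsd17b7, the partner reductase of that complex, was the enzyme whose runs overlapped, with 6.47 and 4.16 CPM against 6.23 and 6.55 CPM, and its ratio was 0.995 without run 2 of the control. Under the minimum, Lss, the lanosterol synthase, rested on 44 and 185 UMIs (ratio 2.29, 1.64 to 3.26) and Tm7sf2, a sterol reductase, on 23 and 73 UMIs (ratio 1.73, 1.07 to 2.90). The ratio of Tm7sf2 was 0.914 when each cell weighed the same, so its direction was not stable at this depth.

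Among the genes of SREBP control, Insig1 was counted as higher and the other 4 were not. Insig1 (ENSMUSG00000045294.11, chromosome 5, 28071363 to 28078662 on the plus strand of GRCm38) is itself a classic SREBP target, and its protein closes the feedback loop by holding SCAP in the endoplasmic reticulum. It had 24.1 and 20.5 CPM in the control runs and 59.7 and 56.8 CPM in the NF2 KO-labelled runs, the largest ratio of the 31 genes at 2.60 (2.39 to 2.84). Every NF2 KO-labelled run was at least 2.35 times every control run. Insig2, whose product has the same retention role but whose gene is not driven by SREBP, had 35.2 and 36.3 CPM against 33.3 and 34.5 CPM, a ratio of 0.952 (0.881 to 1.03). The paralogs thus differed: the interval of Insig1 lay wholly above that of Insig2. Srebf2, the gene of the transcription factor itself, had a ratio of 1.24 (1.13 to 1.36) and Scap one of 1.249 (1.105 to 1.41), both with no overlap of runs. Srebf1, of the SREBP form that mainly serves fatty acid synthesis, had a ratio of 1.02 (0.926 to 1.13) and overlapping runs.

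Genes of uptake control, trafficking and storage differed among themselves. Tmem97, an endoplasmic reticulum protein that binds NPC1 and is induced with the sterol enzymes, had 12.2 and 11.6 CPM in the control runs and 20.3 and 21.0 CPM in the NF2 KO-labelled runs, a ratio of 1.75 (1.55 to 1.98) without overlap. Npc2, which passes cholesterol to NPC1 in the lysosome, had 179 and 209 CPM against 208 and 221 CPM, with overlapping runs and a ratio of 1.11 (1.07 to 1.14). Npc1, the lysosomal exporter, had a ratio of 0.736 (0.653 to 0.830), that is 1.36-fold lower, with 16.5 and 16.6 CPM against 14 and 11.2 CPM. Partners in the same lysosomal step thus had ratios on opposite sides of 1. Stard4, a soluble sterol carrier, had 76.8 and 64.7 CPM against 67.5 and 72.6 CPM (ratio 1.005, 0.952 to 1.06), and Soat1, which esterifies cholesterol for storage, had a ratio of 0.991 (0.902 to 1.09). The runs of both overlapped.

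Mylip, the ligase that marks lipoprotein receptors for degradation and an LXR target, had 20.8 and 18.0 CPM in the control runs and 34.6 and 41.2 CPM in the NF2 KO-labelled runs, a ratio of 2.01 (1.83 to 2.21). Its runs did not overlap, but its ratio changed with the weight given to each cluster. Mylip stood at 198 CPM (181 to 216) in the cluster led by Sult1a1 and Cyp4b1 (14 control and 240 NF2 KO-labelled cells) and at 126 CPM (113 to 140) in that led by Ackr1 and Igfbp5 (41 and 184 cells), against 6.75 to 42.6 CPM in the other NF2 KO-labelled clusters. Both clusters also held more pericyte or smooth muscle markers (177 and 234 CPM, elsewhere 7.77 to 36.9 CPM). Neutrophil markers were likewise higher in them (364 and 185 CPM, elsewhere 39.8 to 105 CPM). The part of these markers in the Mylip level was not tested. With the same cluster weights in both libraries, over the 5 clusters with at least 50 cells of each, the ratio was 1.02. Within those 5 clusters it ranged from 0.753 to 2.11.

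The efflux pumps had ratios below 1. Abca1 (ENSMUSG00000015243.4, chromosome 4, 53030787 to 53159895 on the minus strand of GRCm38) loads cholesterol onto lipid-poor apolipoprotein A-I. It had 210 and 190 CPM in the control runs and 140 and 148 CPM in the NF2 KO-labelled runs, a ratio of 0.728 (0.704 to 0.754), that is 1.37-fold lower. Abcg1, which exports to mature HDL particles, had 61.4 and 54.7 CPM against 37.1 and 40 CPM, a ratio of 0.674 (0.631 to 0.719), that is 1.48-fold lower. For both pumps, the NF2 KO-labelled runs lay below the control runs, and neither reached the size rule. Nr1h2, the gene of the widely expressed LXR beta receptor, had 45.6 and 54.1 CPM against 50 and 50.4 CPM, with overlapping runs and a ratio of 1.003 (0.940 to 1.07). At other processing choices Abcg1 or Abca1 did pass the size rule, as given in the closing section.

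Beside these 33, 48 further genes of neighbouring pathways were examined, of which 37 passed the minimum, 5 were counted as higher, 1 as lower and 31 as neither, beside 3.91% higher and 5.49% lower over all genes. Of the 10 genes past the minimum in the fatty acid list, 3 were higher and 7 were neither. The higher ones were Fasn, the fatty acid synthase (ratio 2.28, 2.01 to 2.58), Elovl6, an elongase (1.86, 1.64 to 2.12), and Lpin1, a phosphatidate phosphatase (1.65, 1.34 to 2.05). Of the oxysterol and sterol transport list, Ch25h, the cholesterol 25-hydroxylase, was higher (1.51, 1.42 to 1.60) and Gramd1b, a carrier of plasma membrane cholesterol to the endoplasmic reticulum, was 2.86-fold lower (2.36 to 3.47). Arl4c, a small GTPase gene known as an LXR target, was higher (2.75, 2.56 to 2.96), the opposite side of 1 from Abca1 and Abcg1. In the branch that leads from farnesyl diphosphate to prenylation, dolichol and ubiquinone, 0 of 9 genes past the minimum were counted as higher or lower, and the median log2 ratio over its 10 genes was 0.02. The 6 processing and sensing genes past the minimum, which include those of the site-1 and site-2 proteases, had 0 counted, with a median log2 ratio of -0.21. With 9.4% of all genes counted either way, 0 among so few genes is near the background and nothing is read from it.

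The retained cells fell into 11 clusters, made without the 33 members and the 48 neighbours and called here by 2 leading genes each. The cluster of Vegfa and Ero1l had 4 hypoxic markers among its 10 leading genes, Vegfa, Bnip3, Slc2a1 and Egln3, and is called hypoxic-like. That of Cenpa and Ccnb2 is mitotic-like, that of Hells and Mcm5 is S phase-like, and that of Cxcl10 and Rsad2 is interferon-like. The cluster of Hist1h1b and Hist1h2ap was led by histone genes and held both mitotic markers (Top2a, Mki67, Ube2c and Cdk1) and S phase markers (Rrm2 and Tk1) among its 20 leading genes. It is called by its genes and makes up, with the mitotic-like and S phase-like clusters, the cycling clusters. Its mitotic sum was above that of the mitotic-like cluster (4932 against 2802 CPM in the control, 4756 against 2217 CPM in the NF2 KO-labelled library). Its S phase sum was above that of the S phase-like cluster (2000 against 1654 CPM in the NF2 KO-labelled library). Those names therefore rest on leading genes and not on the highest sum. The cluster of Ramp3 and Rgs2 had 4 capillary markers among its 20 leading genes, beside Clu, Lrg1 and Icam1 of the arterial, venous and chemokine-high lists. Its summed capillary markers were not the highest of the clusters in either library, and it is called by its genes. The cluster of Gal and Kcnj8 (529 control and 17 NF2 KO-labelled cells) and that of Cldn4 and F2rl1 (19 and 790 cells) were each held almost wholly by 1 library, so cluster and library cannot be told apart in them. A level is given for a cluster only where a library had at least 50 cells in it.

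The summed transcripts of the 19 synthesis enzymes were lowest in the hypoxic-like cluster in both libraries. As given above, this cluster was also the highest in tip cell markers. In each of the 4 runs the sum of the 19 enzymes was lower there than in every other cluster with a value. They summed to 187 CPM (170 to 205) there in the control (134 cells) and to 200 CPM (188 to 213) in the NF2 KO-labelled library (288 cells). In the cells that were neither hypoxic-like nor cycling they summed to 333 and 496 CPM, so that the sum in the hypoxic-like cluster was 1.78-fold lower in the control and 2.48-fold lower in the NF2 KO-labelled library. Genes in general were somewhat lower there, with a median ratio over all 9255 genes of 0.872 in the control and 0.877 in the NF2 KO-labelled library. Over the 17 enzymes past the minimum it was 0.473 and 0.323. Of the 17 enzymes past the minimum, 12 were at least 1.5-fold lower in the hypoxic-like cells in the control, against 24.9% of all 9255 genes, and 15 in the NF2 KO-labelled library, against 25.4%. Acat2 had the lowest ratio to the other cells in the control, at 1.29 CPM against 6.32 CPM (ratio 0.204, 0.0416 to 0.610). That level rested on 3 UMIs. Fdps was at 11.2 against 31.3 CPM in the control and at 14.5 against 62.2 CPM in the NF2 KO-labelled library. The median cell of that cluster had 14960.5 UMIs in the control and 15454 in the NF2 KO-labelled library, within the range of the other clusters.

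The INSIG genes and Soat1 had the opposite order. Insig1 was at 38.3 CPM (30.7 to 47.1) in the hypoxic-like cluster of the control against 20.9 CPM in the cells that were neither hypoxic-like nor cycling, and at 97.7 CPM (89.2 to 107) against 56.4 CPM in the NF2 KO-labelled library. Insig2 was at 64.9 against 34 CPM in the control and at 56.8 against 33.3 CPM in the NF2 KO-labelled library. Soat1 was at 54.6 against 19.2 CPM and at 39.9 against 20.8 CPM. For all 3 genes this cluster held the highest level of its library. By run the order held in both control runs and in run 2 of the NF2 KO-labelled library, while in run 1 of the latter Insig1 was at 85.8 CPM here and at 89.4 CPM in the Cldn4 F2rl1 cluster, and Soat1 at 30.2 CPM here and at 35.1 CPM in the Cenpa Ccnb2 cluster. In the hypoxic-like cluster Insig1 was thus high and the enzymes low, although over the whole libraries Insig1 and the enzymes were higher together. A ratio of at least 1.5 for the hypoxic-like cluster was seen for 5 of the 33 members in the control, among them Lss, which is under the minimum. In the NF2 KO-labelled library it was seen for 3 of the 33. Over all genes the shares were 9.43% in the control and 9.57% in the NF2 KO-labelled library, so the count in the latter was near the background.

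**Figure D3:**
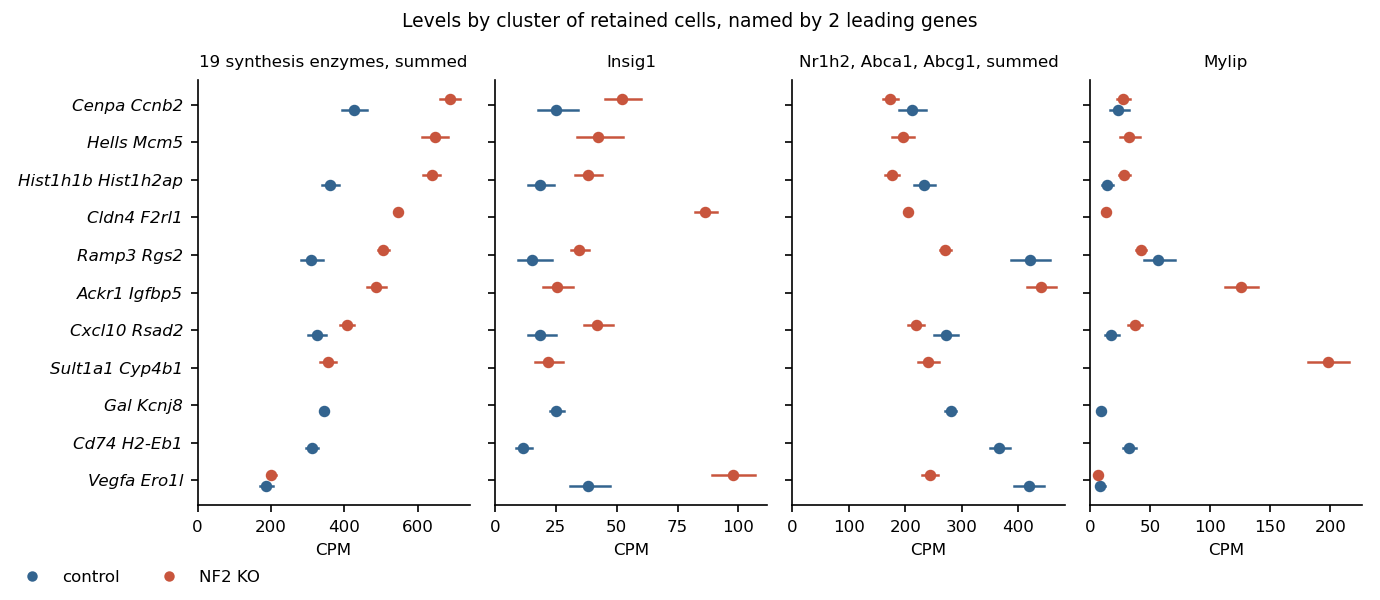
Levels in CPM (horizontal axis) by cluster, each named by 2 leading genes, for the 19 synthesis enzymes summed, Insig1, the LXR and efflux arm summed and Mylip; points are levels in clusters with at least 50 cells of that library and lines 95% Poisson intervals. The hypoxic-like cluster (Vegfa Ero1l) has the lowest enzyme sum (187 and 200 CPM) and the highest Insig1 (38.3 and 97.7 CPM), and Mylip peaks at 198 CPM in the Sult1a1 Cyp4b1 cluster.

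The cycling clusters had high transcript sums of the synthesis enzymes, most clearly in the NF2 KO-labelled library. The sum of the 19 enzymes was 427 CPM in the Cenpa Ccnb2 cluster and 362 CPM in the Hist1h1b Hist1h2ap cluster of the control, and 688, 639 and 647 CPM in the 3 cycling clusters of the NF2 KO-labelled library. In both NF2 KO-labelled runs all 3 stood above every other cluster. In the control the Hist1h1b Hist1h2ap cluster did not stand apart from the Gal Kcnj8 cluster (345 CPM), since their intervals overlapped and in run 2 they were at 350.2 and 357 CPM. Acat2 in the 3 clusters together was at 15.6 CPM for the control against 22.1 CPM for the NF2 KO-labelled library, 2.47 and 2.12 times its level in the cells that were neither cycling nor hypoxic-like. Tmem97 was likewise 2.07 and 2.37 times higher in them. Few enzymes passed the size rule in this comparison: 2 of 17 in the control and 4 of 17 in the NF2 KO-labelled library, beside 11.7% and 10.7% of all genes. None of the 17 was at least 1.5-fold lower (0 in both libraries, beside 6.36% and 8.62% of all genes). Abca1 was lower in these clusters, at 139 against 200 CPM in the control and at 96.1 against 157 CPM in the NF2 KO-labelled library.

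Across clusters Abca1 tended to be lower where the enzyme sum was higher. Over the 7 control clusters the Spearman correlation of Abca1 with the enzyme sum was -1, and over the 9 clusters of the NF2 KO-labelled library it was -0.68. Pearson's r was -0.87 in the control and -0.29 in the NF2 KO-labelled library. In the hypoxic-like cluster, where the enzyme sum was lowest, Abca1 was compared with the cells that were neither hypoxic-like nor cycling. It was at 156 against 157 CPM in the NF2 KO-labelled library, whereas in the control it was at 329 against 199.5 CPM. Both measures also followed depth: with the median UMIs per cell the enzyme sum had a correlation of 0.86 and 0.67 and Abca1 one of -0.86 and -0.70. The points share a library and their values are parts of the same totals. Srebf2 followed the enzyme sum, with 0.82 in the control and 0.85 in the NF2 KO-labelled library, and Insig1 did not, with 0.04 and 0.18.

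Within clusters, the difference between libraries was kept for some genes in each of the 5 clusters with at least 50 cells of both. Idi1, Cyp51, Dhcr7 and Insig1 had a ratio of at least 1.5 in every one, 4 of the 31 genes past the minimum, where 0.659% of all 9255 genes did so. In the smallest control cluster for each gene this rested on 3 UMIs for Dhcr7, 8 for Cyp51, 18 for Idi1 and 21 for Insig1. In the hypoxic-like cluster the intervals of Dhcr7 (0.461 to 9.74), Cyp51 (0.739 to 4.23) and Idi1 (0.990 to 3.03) held 1, that of Dhcr7 held 1 in the other 4 clusters as well, and that of Insig1 held 1 in none of the 5. The ratio of Insig1 lay between 2.08 and 2.55, that of Idi1 between 1.61 and 2.60. In all, 15 of the 31 genes had a ratio above 1 in each of the 5 clusters (9.3% of all genes) and 3, Npc1, Abca1 and Abcg1, had one below 1 in each (15.2% of all genes). Abca1 was lowest relative to the control in the hypoxic-like cluster, at 0.474 (0.428 to 0.524), and ranged up to 0.725 in the interferon-like one.

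The ratio of the enzyme sum differed between clusters. It was 1.07 (0.956 to 1.202) in the hypoxic-like cluster, where the interval held 1, and 1.252 (1.15 to 1.36) in the interferon-like cluster. It was 1.61 (1.48 to 1.76) in the Cenpa Ccnb2 cluster, 1.64 (1.48 to 1.81) in the Ramp3 Rgs2 cluster and 1.77 (1.64 to 1.90) in the Hist1h1b Hist1h2ap cluster. The interval of the hypoxic-like cluster thus did not meet those of the last 3, within counting error. In the hypoxic-like cluster Msmo1 had a ratio of 0.984 (0.622 to 1.59) and Hmgcs1 one of 0.893 (0.625 to 1.29), while Insig1 there kept a ratio of 2.55 (2.03 to 3.24). Each of these comparisons is of 1 library against 1 library.

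**Figure D4:**
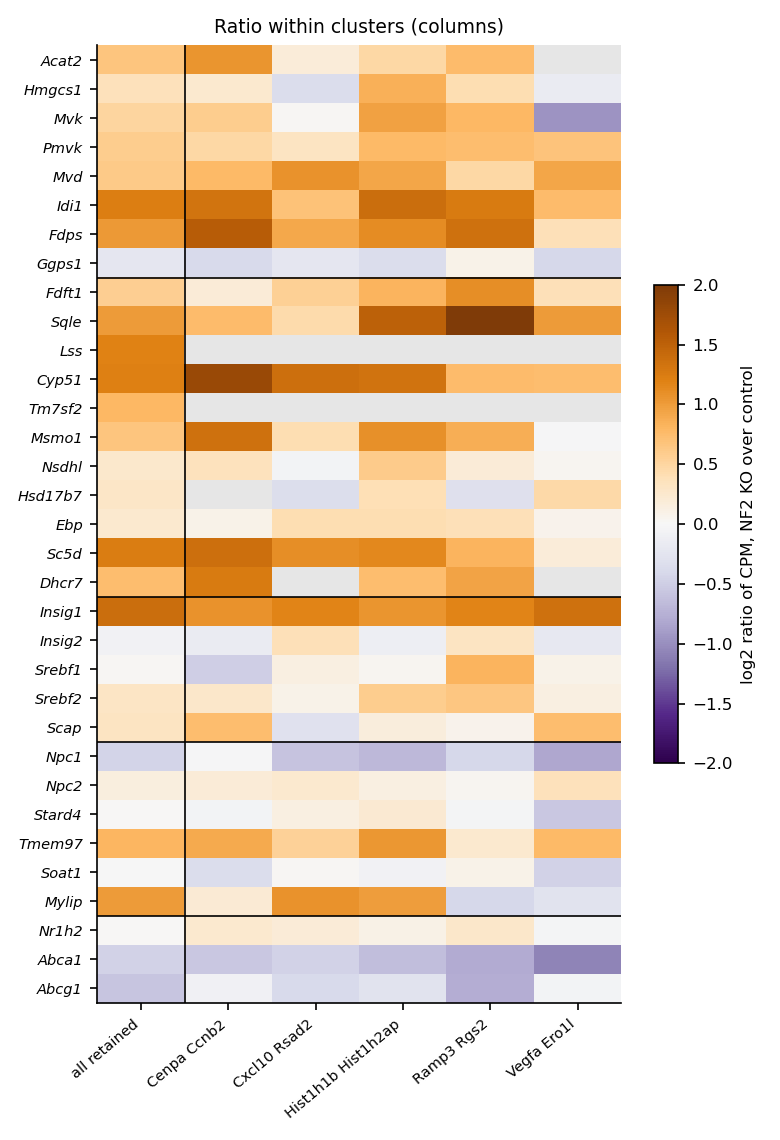
Heat map of the log2 ratio of CPM (NF2 KO-labelled over control, colour scale from -2 to 2) for each gene in all retained cells and within the 5 clusters with at least 50 cells of both libraries; grey cells hold fewer than 30 UMIs in all or none in the control, and horizontal lines separate the 5 arms. Insig1, Idi1 and Cyp51 are orange in every column, Abca1 is purple in every column, and in the hypoxic-like column (Vegfa Ero1l) Mvk (ratio 0.515) and Hmgcs1 (ratio 0.893) are purple.

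The Cldn4 F2rl1 cluster, held almost wholly by the NF2 KO-labelled library, had Insig1 at 86.4 CPM (82.0 to 91.0) with an enzyme sum of 546 CPM (535 to 558). The Gal Kcnj8 cluster, held almost wholly by the control, had Insig1 at 25.2 CPM (22.4 to 28.2) and an enzyme sum of 345 CPM (335 to 356). Without both of these clusters the ratio of Insig1 was 2.27 and that of Fdps 2.18, and the median log2 ratio of the 19 enzymes was 0.69. In the Cd74 H2-Eb1 cluster of the control (289 cells), led by MHC class II genes, Insig1 was at its lowest, at 11.5 CPM (8.64 to 15.1).

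The UMIs of the same libraries were also taken cell by cell, which adds no replicate. When every retained cell with at least 5000 UMIs was thinned to that number, leaving out 198 control and 108 NF2 KO-labelled cells, a cell of the control held on average 1.62 UMIs of the 19 enzymes and one of the NF2 KO-labelled library 2.34. The medians were 1 and 2 UMIs, and 24.4% of 1239 control and 17.2% of 2623 NF2 KO-labelled cells held none. By run, the mean was 1.61 and 1.64 UMIs in the control and 2.45 and 2.26 in the NF2 KO-labelled library. For the 9 uptake, trafficking and efflux genes the means were 3.30 and 3.21 UMIs, with medians of 3 in both. At this depth Insig1 was found in 10.7% of control cells (8.99 to 12.5) and 21.6% of NF2 KO-labelled cells (20.1 to 23.2), against 28.7% and 49.3% before thinning. Abca1 was found in 54.6% (51.7 to 57.4) and 45.5% (43.6 to 47.4), the reverse order. The intervals of these shares treat the cells of 1 library as independent and cover no spread between libraries. No cell type known to lack these genes was among the retained cells, so the share that free RNA would give was not measured.

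**Figure D5:**
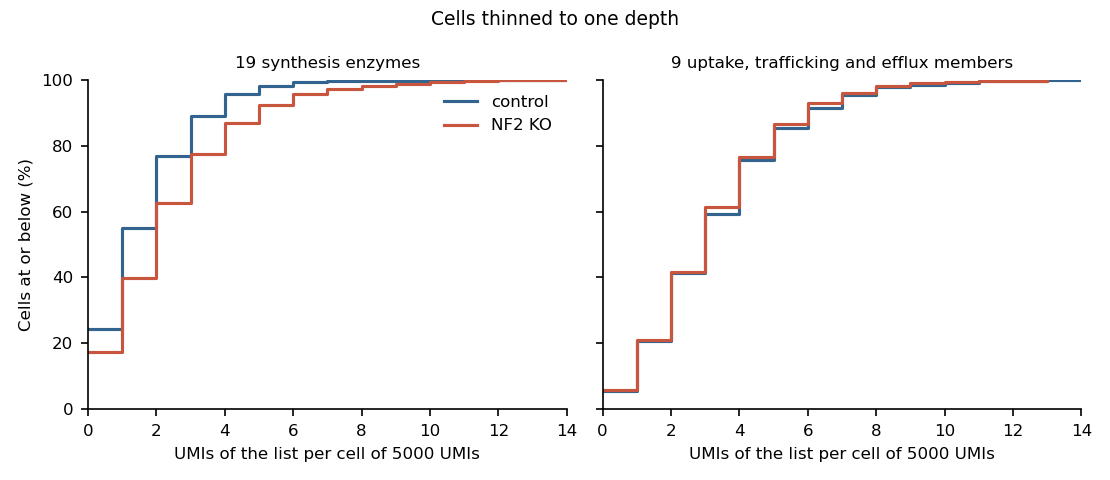
Share of cells (vertical axis, %) at or below a number of UMIs of the list (horizontal axis), in cells thinned to 5000 UMIs, for the 19 synthesis enzymes (left) and the 9 uptake, trafficking and efflux genes (right), control in blue and NF2 KO-labelled in red. The red curve of the enzymes lies below the blue one up to 11 UMIs (17.2% against 24.4% of cells at 0 UMIs), beyond which they cross and nearly coincide. The curves on the right nearly coincide.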

How the data were processed

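Single-cell RNA was measured in 1 control and 1 NF2 KO-labelled library of sorted tumour endothelial cells. The submitters' processing notes name Cell Ranger 3.0.0, Seurat 3.1.1 and mm10, and no settings. The authors deposited natural log values. Each equals ln(1 + 10000 × UMIs / total of the cell), and 100% of those above 0 gave whole UMI counts within 0.01 UMI. These recovered counts were used where counts had been assumed, and 0 columns were unused.

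Filters were 500 genes and 1000 UMIs or more and 10% mitochondrial UMIs or less. Every deposited cell already met the limits on genes and mitochondrial share. This left 2572 control and 3312 NF2 KO-labelled cells. Scrublet's automatic threshold marked 2 control cells (0.0778%) and 0 others, so it was taken as failed. In its place the 5% with the top scores (129 and 166 cells) were removed. Cells were clustered with scanpy 1.11.5 and igraph 0.11.9 on 2000 variable genes, without the 33 genes and 48 neighbours (30 components, 15 neighbours, Leiden resolution 0.8, no integration). There were 2 rounds. Clusters with a median depth under 0.333 of their sample's and no endothelial marker among 10 leading genes, and clusters where markers of another type outnumbered endothelial ones there by 2 or more, were left out at both rounds. Doing so at the second round was chosen after seeing the data. In all, 1006 control and 415 NF2 KO-labelled cells were left out in this way. Gene positions are from GENCODE vM21 (GRCm38).

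UMIs were summed per library, and log2 ratios had 1 UMI added to each sum. With 1 library per group no test was possible, and intervals cover counting error only (those of shares are exact Clopper-Pearson). Python 3.11.15, numpy 2.4.6, scipy 1.17.1, pandas 2.3.3 and matplotlib 3.10.9 were used, and the ratio step was tested on simulated data. All 33 genes are accounted for. By rule, those past the size rule and the 2 most abundant of each arm have values by run, and neighbouring genes are named only past the size rule. Further genes with values by run, and the clusters described, were chosen after their values were seen. The members and all lists were chosen with earlier results of these data known. There were 20 alternative settings. A gene that is not reported here was passed over in naming 1 cluster.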

Additional observations from a re-analysis of the deposited data

How the results depend on the processing

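No paired analysis was possible because each group has 1 library and the labels carry no replicate number. The count of genes higher in the NF2 KO-labelled library was 13, and between 9 and 15 under the settings that change cells, scaling or runs, with 6 at a minimum of 20 CPM, 7 at a size rule of 2 and 16 at one of 5 to 4 (NF2 KO-labelled to control). The count of genes lower was 0, and became 1 (Abcg1) without doublet removal, thinned to 5000 UMIs, as a mean of cells, without the cycling clusters, without run 2 of either library and at resolution 1.2, 1 (Abca1) with the same cluster weights and 3 (Npc1, Abca1 and Abcg1) at that of 5 to 4. The median log2 ratio of the 19 enzymes was 0.66, was 0.51 as a mean of cells, and ranged from 0.57 to 0.78 over the settings that leave out a run, the highest without run 2 of the NF2 KO-labelled library. That of the 9 uptake, trafficking and efflux genes stayed between -0.06 and 0.04. Mylip (2.01) went to 1.02 with the same cluster weights and Tm7sf2 (1.73) to 0.914 as a mean of cells and 2.91 with the same cluster weights, and no other ratio moved by over 1.5 times. Leaving out the clusters held by 1 library, and applying the rule on clusters at the first round only, were alternatives added after the data were seen. The causes were not tested. Counting depth limits Lss and Tm7sf2 most, and the single library per group limits every ratio.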

Other observations

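The cells left out as shallow or of other types, 1006 in the control and 415 in the NF2 KO-labelled library, had medians of 1846.5 and 2724 UMIs. In them the 19 synthesis enzymes summed to 316 CPM (296 to 337) and 418 CPM (387 to 450.5), Insig1 stood at 27.1 CPM (21.4 to 33.8) and 47.2 CPM (37.2 to 59.1), and Abca1 at 123 CPM (110.2 to 136) and 88.3 CPM (74.3 to 104). Npc2 stood at 229 CPM (212 to 247) and 205 CPM (184 to 228). The order of the libraries was that of the retained cells for the enzyme sum, Insig1 and Abca1, and the opposite for Npc2 (195 and 216 CPM in the retained cells). The left-out cells were unlike mixtures, however. A cluster led by S100a9 and Lyz2, with neutrophil markers, held 573 control and 12 NF2 KO-labelled cells, and one led by AY036118 and S100a8 held 216 and 286. Cell type and library therefore cannot be told apart in them.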
